A study of Mus musculus with 7 samples.

Results

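The 10 T-box transcription factor genes T, Eomes, Tbx1, Tbx2, Tbx3, Tbx4, Tbx5, Tbx15, Tbx18 and Tbx20 were chosen by name, with earlier results of these data known. All 10 were found among the 23530 gene entries of each H3K27me3 gene-body count file. H3K27me3 is the repressive histone mark laid down by Polycomb repressive complex 2 (PRC2). It was profiled by chromatin immunoprecipitation and sequencing in spermatocytes of wild-type CD1 mice at postnatal day 17 (P17), in a file that pools 2 replicates, and at postnatal day 12 (P12), with 1 replicate. CD1 is an outbred mouse stock, the cells were a Percoll fraction of enzyme-digested testis, and no mutation or treatment was applied to either stage. The series holds 7 samples, and these 2 carry a value per gene. The P17 file holds 26664736 reads and the P12 file 13462873 reads. With 1 file per stage there is no replicate check and no p-value was computed: every 95% interval below covers counting error only, so a difference is between these files and not between stages.

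T-box factors share a DNA-binding domain, the T-box, and switch on or off the genes that build mesoderm, heart, limbs, face and parts of the brain in the embryo. Most of them are textbook targets of PRC2, which holds them silent in cells that do not use them. Spermatocytes are germ cells in meiosis, and the series title places PRC2 repression of somatic genes in male germ cells at the centre of the study. The family falls into 5 subfamilies by sequence, named after T, Tbr1, Tbx1, Tbx2 and Tbx6, and the results follow that grouping, which was applied after the values had been seen.

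Of the 10 genes, 9 carried more H3K27me3 reads at P17 than at P12 once reads were scaled to the file total (CPM), by 1.03-fold for Tbx15 up to 1.31-fold for Tbx18, and T alone carried fewer, at 0.898-fold. Together the 10 genes held 0.120% of all counted reads at P17 and 0.106% at P12. The log2 ratio of P17 over P12 had a median of 0.17 over the 10 genes, against -0.08 over the 21808 genes with at least 20 reads. That all-gene median is called the typical gene here. Intervals of 9 of the 10 T-box genes lay wholly above the typical gene and 0 lay below it, while 21.2% of all tested genes lay above and 10.1% below. No T-box gene was over 2-fold higher or lower with an interval excluding a ratio of 1, calls made for 2.57% and 0.335% of all tested genes. More reads narrow an interval, so a call above the typical gene is easier for genes with many reads. The 10 T-box genes had a median of 107 CPM at P17, against 15.1 CPM over all tested genes. The share called among genes of like read level was not computed. Intervals of the 9 genes also lay above the median of genes of like read level, which ran from -0.08 to -0.03. For Tbx20 the margin was slight, with an interval from -0.0334 against a median of -0.0350. The 9 genes exceeded from 65.4% (Tbx20) to 90.9% (Tbx2) of the genes of like read level. Like level means a mean CPM within 1.5-fold. Gene length was not matched, so neither was the density of the mark. With 1 file per stage, a stage difference and a stronger enrichment of the pooled P17 chromatin cannot be told apart, and input libraries were not analysed here. More marked cells and more mark per cell cannot be told apart either.

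**Figure D1:**
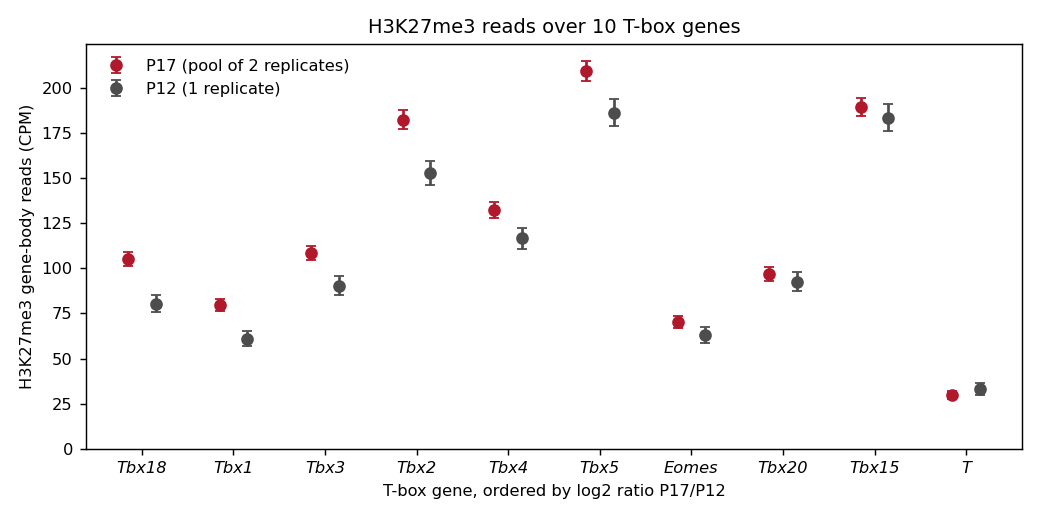
H3K27me3 reads scaled to the file total (CPM, y axis) over each of 10 T-box genes (x axis, in order of their ratio), at P17 (pool of 2 replicates, red) and P12 (1 replicate, grey); bars are exact Poisson 95% intervals. For T the P17 point, 29.7 CPM, lies below the P12 point, 33.1 CPM; for the 9 other genes the P17 point lies above the P12 point. Levels are not divided by gene length, so heights compare stages within a gene, not genes.

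The Tbx2 subfamily, of which all 4 genes are members, stood above the typical gene throughout. Tbx2 and Tbx3 encode repressors that pattern the heart and limbs, and Tbx4 and Tbx5 encode activators of hindlimb and lung, and of forelimb and heart. Tbx2 held 182 CPM at P17 and 153 CPM at P12 (4858 and 2056 reads), a log2 ratio of 0.25 (0.18 to 0.33). Tbx3 held 108 CPM at P17 and 90.2 CPM at P12 (2887 and 1215 reads), a log2 ratio of 0.26 (0.17 to 0.36). Those 2 close relatives, on different chromosomes, had nearly the same ratio: the difference Tbx2 minus Tbx3 was -0.01 on the log2 scale (-0.13 to 0.12). Tbx4 held 132 CPM at P17 and 117 CPM at P12 (3524 and 1570 reads), a log2 ratio of 0.18 (0.09 to 0.27). Tbx5 held 209 CPM at P17 and 186 CPM at P12 (5580 and 2507 reads), a log2 ratio of 0.17 (0.10 to 0.24). The difference Tbx5 minus Tbx4 was likewise -0.01 (-0.12 to 0.10). Tbx2 lies beside Tbx4 on chromosome 11 and Tbx3 beside Tbx5 on chromosome 5, and in each pair of neighbours the repressor gene had the higher ratio. The differences were 0.07 for Tbx2 minus Tbx4 (-0.04 to 0.19) and 0.09 for Tbx3 minus Tbx5 (-0.02 to 0.21), with intervals that include 0.

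The Tbx1 subfamily was the most spread out. Tbx18, which shapes the sinoatrial node, somites and ureter, held 105 CPM at P17 and 80.3 CPM at P12 (2806 and 1081 reads). Its log2 ratio of 0.39 (0.29 to 0.49) was the highest of the 10 and exceeded that of 87.5% of all tested genes. Tbx1, a regulator of the pharyngeal arches, held 79.8 CPM at P17 and 61.0 CPM at P12 (2127 and 821 reads), a log2 ratio of 0.39 (0.27 to 0.51). Tbx20, a heart factor, held 96.9 CPM at P17 and 92.6 CPM at P12 (2583 and 1247 reads), a log2 ratio of 0.06 (-0.03 to 0.16). Tbx15, a factor of skeleton and skin patterning, held 189 CPM at P17 and 183 CPM at P12 (5046 and 2469 reads), a log2 ratio of 0.05 (-0.02 to 0.12). The stage intervals in CPM overlapped for Tbx20 and Tbx15 but not for Tbx18 and Tbx1, and the ratio intervals of Tbx20 and Tbx15 included 0 while lying above the typical gene. Tbx15 and Tbx18 are each other's closest relatives, yet Tbx18 minus Tbx15 was 0.34 (0.22 to 0.47). Tbx10, the closest relative of Tbx1, held 11.3 CPM at P17 and 13.0 CPM at P12, and Tbx1 minus Tbx10 was 0.59 (0.29 to 0.89). Tbx22, an X-linked palate gene, had a log2 ratio of -0.43 (-0.78 to -0.07) on 166 reads at P17 and 113 at P12.

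In the Tbr1 subfamily all 3 genes stood above the typical gene. Eomes, needed for trophoblast, endoderm and cortical progenitors, held 70.1 CPM at P17 and 62.9 CPM at P12 (1869 and 847 reads), a log2 ratio of 0.16 (0.04 to 0.27), with CPM intervals that meet between 67.0 and 67.3. Tbr1, a factor of cortical neurons, stood at 0.31 (0.21 to 0.41), with 2749 reads at P17 and 1119 at P12. Tbx21, the Th1 lymphocyte factor T-bet, stood at 0.19 (0.06 to 0.32), with 1494 reads at P17 and 662 at P12. Eomes differed from neither beyond counting error, with Eomes minus Tbr1 at -0.15 (-0.31 to 0.00) and Eomes minus Tbx21 at -0.03 (-0.21 to 0.15).

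T encodes Brachyury, the factor of primitive streak, mesoderm and notochord, and was the member that did not follow the others. It held 29.7 CPM at P17 (27.6 to 31.8) and 33.1 CPM at P12 (30.1 to 36.3), on 791 and 445 reads. Its log2 ratio of -0.16 (-0.33 to 0.01) included both 0 and the typical gene, so the P17 file was not distinguishable from the P12 file at this depth. Its ratio was nevertheless below that of each of the 9 other members. The intervals of all 9 differences with T excluded 0, the smallest being Tbx15 minus T at 0.20 (0.02 to 0.39). These differences do not depend on how the libraries are scaled. T was singled out because its ratio was the lowest, and the intervals were not adjusted for that or for the number of comparisons. Tbx19, the pituitary factor of the same subfamily, stood close to T at -0.13 (-0.30 to 0.05), on 789 reads at P17 and 435 at P12. The difference T minus Tbx19 was -0.03 (-0.27 to 0.21). In the gene table T overlaps the predicted gene LOC115486424, and Eomes, Tbx1, Tbx3, Tbx5 and Tbx15 overlap long noncoding RNA genes; reads of such genes cannot be separated from those of these 6 members.

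The 2 genes of the Tbx6 subfamily are not members. Tbx6, which specifies presomitic mesoderm, stood at -0.19 (-0.75 to 0.37) on only 76 reads at P17 and 44 at P12. Mga, which encodes a partner of Max in a variant PRC1 complex and is broadly expressed, stood at -0.19 (-0.35 to -0.04) on 942 reads at P17 and 544 at P12. Over all 17 T-box genes, 11 intervals lay above the typical gene and 0 below, against 21.2% and 10.1% of all tested genes. The other 6 intervals spanned it: those of T, Tbx19, Tbx6, Mga, Tbx10 and Tbx22. This split also followed the number of reads. The 6 genes had at most 942 reads at P17 (Mga) and the 11 genes at least 1494 (Tbx21). The part of read number in the split, beside subfamily, was not tested. The 10 members supplied 9 of the 11 genes above. Among the 7 genes outside the 10, 2 lay above, and the median log2 ratio of -0.19 was lower than the typical gene at -0.08.

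**Figure D2:**
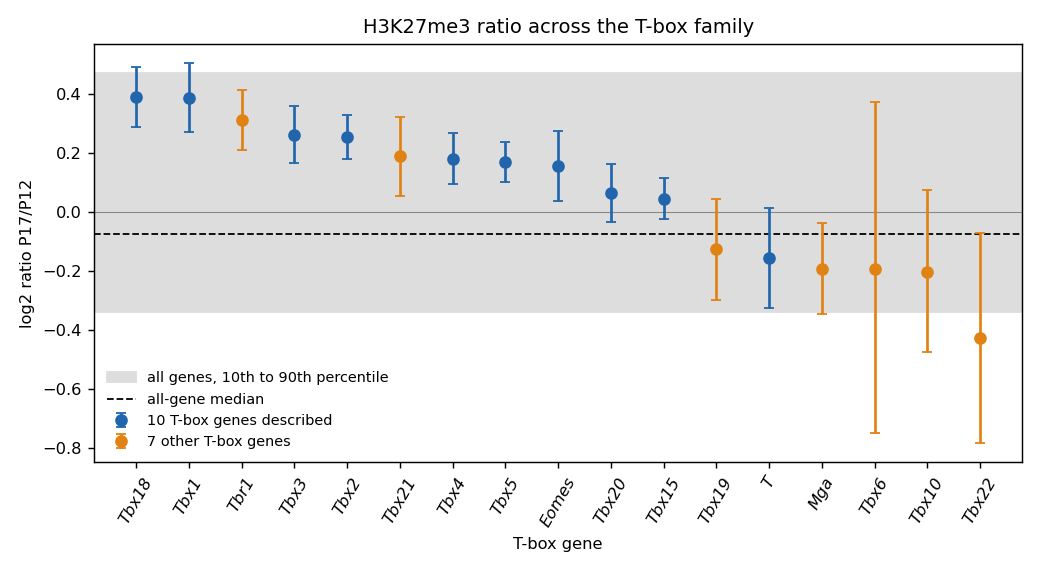
Log2 ratio P17/P12 of H3K27me3 gene-body reads (y axis) for 17 T-box genes in falling order (x axis), 10 members in blue and 7 other family genes in orange; bars are exact 95% counting intervals, the dashed line is the all-gene median of -0.08 and the band the 10th to 90th percentile of all tested genes, -0.34 to 0.47. The 11 genes on the left have intervals wholly above the dashed line and the 6 on the right have intervals that include it.

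In the order of ratios, which gene length does not affect, the 10 members ran Tbx18, Tbx1, Tbx3, Tbx2, Tbx4, Tbx5, Eomes, Tbx20, Tbx15 and T. Of the 9 steps between neighbours in this order, 1 exceeded counting error, that between Tbx15 and T. Over all 45 pairs of members, 26 differences had intervals excluding 0, without adjustment for the number of pairs. Of these 26, 9 were the pairs with T. Pairs of other genes were not counted, so 26 of 45 has no baseline. The genes closest to the members' median CPM at both stages were Arhgap31, Casr and Tmem200a, at distances of 0.0014, 0.021 and 0.041 in log2 CPM over the 2 libraries. They were picked for matching both levels, so their ratios follow from the choice.

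Sequence just before the gene start was compared for the members listed in the RefSeq promoter table (GRCm38), which gives windows from 250 bases before to 50 bases after a start. The table held 7 windows for 6 members, T, Eomes, Tbx1, Tbx4, Tbx18 and Tbx20; Tbx2, Tbx3, Tbx5 and Tbx15 were not matched. CG dinucleotides are shown in capitals because PRC2 in mammals is known to favour promoters rich in CG. The 4 shown are the highest and the lowest ratios among members with a window at their outermost start. Tbx18 lies at chr9:87731261-87731510 and Tbx1 at chr16:18590672-18590921, both on the minus strand, Tbx20 at chr9:24774304-24774553 on the minus strand, and T at chr17:8434173-8434422 on the plus strand.
Tbx18: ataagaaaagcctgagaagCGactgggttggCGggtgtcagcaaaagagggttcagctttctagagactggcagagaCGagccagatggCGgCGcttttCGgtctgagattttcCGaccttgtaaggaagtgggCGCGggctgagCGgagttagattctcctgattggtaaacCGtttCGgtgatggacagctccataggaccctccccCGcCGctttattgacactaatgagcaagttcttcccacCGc
Tbx1: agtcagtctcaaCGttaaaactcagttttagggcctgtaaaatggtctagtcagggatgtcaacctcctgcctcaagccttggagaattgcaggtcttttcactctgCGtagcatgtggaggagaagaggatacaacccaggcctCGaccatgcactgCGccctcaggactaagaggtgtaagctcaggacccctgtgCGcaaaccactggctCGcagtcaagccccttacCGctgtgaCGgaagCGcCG
Tbx20: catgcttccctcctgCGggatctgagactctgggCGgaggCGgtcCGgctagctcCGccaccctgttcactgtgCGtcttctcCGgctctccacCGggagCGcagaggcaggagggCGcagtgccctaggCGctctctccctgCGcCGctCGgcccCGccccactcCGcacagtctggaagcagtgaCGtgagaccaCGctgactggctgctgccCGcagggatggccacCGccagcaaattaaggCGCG
T: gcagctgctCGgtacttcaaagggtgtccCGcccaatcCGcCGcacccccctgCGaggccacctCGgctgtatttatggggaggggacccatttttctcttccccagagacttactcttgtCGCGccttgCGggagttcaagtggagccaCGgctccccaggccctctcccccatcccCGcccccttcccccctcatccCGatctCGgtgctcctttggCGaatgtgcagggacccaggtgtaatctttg
The 250 bases shown hold 15 CG for Tbx18, 10 for Tbx1, 22 for Tbx20 and 14 for T. All 7 member windows of 300 bases held more CG than the median of 7 over 32851 windows, from 8 for Tbx4 and 10 for Eomes up to 26 for Tbx20 and for the inner start of Tbx1. At least as many CG as in the T window, 17, were found in 31.4% of all windows, and as in the Tbx20 window in 16.9%. For the windows of Tbx4 and Eomes, nearest the median, the shares were 48.65% and 43.5%. Among T-box genes outside the 10, Mga held 24 CG, Tbx21 21, Tbr1, Tbx6 and Tbx19 7 each, Tbx10 4 and Tbx22 1 to 2. The CG count did not order the ratios: T, with the lowest ratio, held 17 CG in its window and Tbx18, with the highest, held 15. The T-box binding motif GGTGTGA, searched on both strands, was in 0 of the 7 windows and in 3.98% of all windows.

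The genes on either side of each member were mostly nearer to the typical gene. Taking up to 2 measured protein-coding genes on each side, by gene order in the GRCm38 table, gave 32 neighbours outside the T-box family with a median log2 ratio of -0.14. Of these 32, 5 lay above the typical gene and 7 below, against 21.2% and 10.1% of all tested genes. In 32 of 36 pairs of a member and such a neighbour the member had the higher ratio, in 21 of them with separate intervals, and 9 of the 10 members exceeded the median of their neighbours. Bcas3, Brip1, Med13l and Rbm19 each stood in 2 pairs. Pairs with genes from elsewhere were not counted, so 32 of 36 has no baseline. Tbx1 stood farthest out, at 0.39 against -0.07 for Gnb1l and -0.38 for the platelet gene Gp1bb on its sides. Tbx18 at 0.39 lay between 4922501C03Rik at -0.16 and the ectonucleotidase gene Nt5e at 0.06. The adjacent Tbx2 and Tbx4, at 0.25 and 0.18, were flanked by Bcas3 at -0.18 and the DNA repair helicase gene Brip1 at -0.15. Tbx3 and Tbx5, at 0.26 and 0.17, were flanked by the Mediator gene Med13l at -0.11 and the ribosome biogenesis gene Rbm19 at -0.05. Eomes at 0.16 lay between Cmc1 at -0.10 and the golgin gene Golga4 at -0.12.

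Smaller gaps were found for the remaining members. Tbx20 at 0.06 lay between Dpy19l2 at -0.09 and Herpud2 at -0.16, and Tbx15 at 0.05 between Wars2 at -0.14 and the sperm axoneme gene Spag17 at -0.14. T at -0.16 lay between T2 at 0.07 and the phosphodiesterase gene Pde10a at -0.44 (-0.50 to -0.38). The next gene beyond T2, Prr18, stood at 0.50 (0.33 to 0.68), and its interval lay wholly above that of T. The 4 pairs in which the neighbour was higher were T with T2 and Prr18, Tbx5 with the LIM homeobox gene Lhx5 at 0.27, and Tbx20 with Cypt4 at 0.91, the last on 16 reads at P17 and 4 at P12.

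**Figure D3:**
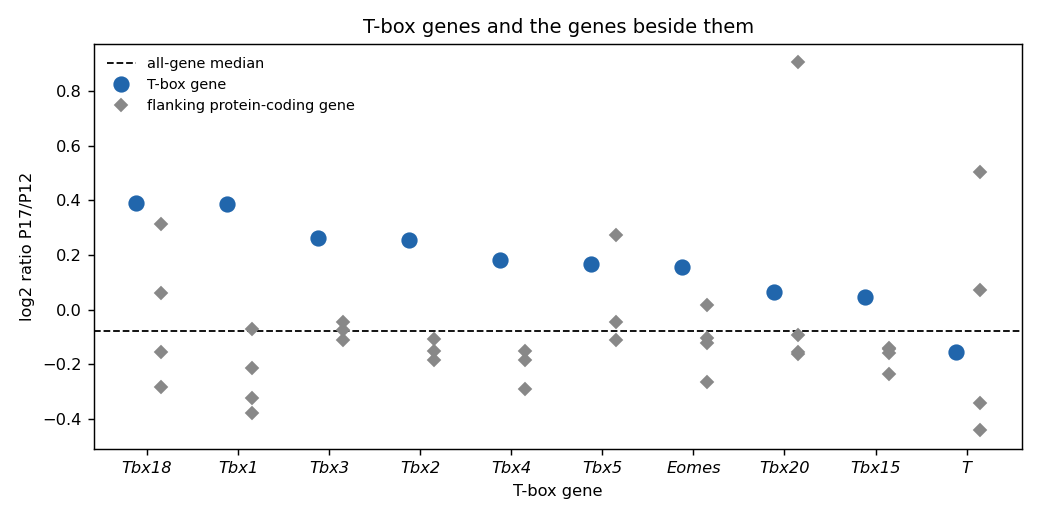
Log2 ratio P17/P12 of H3K27me3 gene-body reads (y axis) for each of 10 T-box genes (blue circles, x axis) and for up to 2 protein-coding genes on each side of it that are not T-box genes (grey diamonds); the dashed line is the all-gene median of -0.08. The blue circle lies above all its diamonds for 7 of the genes; the exceptions are Tbx5, Tbx20 and T.

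Genes that act with the T-box factors in the embryo were set beside them from 3 lists. Over all tested genes 21.2% lay above the typical gene and 10.1% below. Median levels at P17 were 88.2 CPM for inducers, 65.7 for partners and 37.1 for targets, against 15.1 CPM over all tested genes. More reads make a call easier, and the share called among genes of like level was not computed. Of 10 genes that induce T-box genes, signals and upstream factors, all 10 intervals lay above the typical gene, with a median of 0.31. They ran from Shh, the Hedgehog ligand, at 0.08 (-0.01 to 0.17) to Nodal, the mesendoderm ligand, at 0.76 (0.59 to 0.95; 41.8 CPM at P17 and 24.6 CPM at P12). Of 10 partner factors, 8 lay above and 0 below, with a median of 0.39. Mixl1, a homeobox factor of mesendoderm, was highest at 0.83 (0.58 to 1.08), and the T-box corepressor gene Ripply1 lowest at -0.23 (-0.99 to 0.54) on 42 reads at P17 and 25 at P12.

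Of 10 target genes, 5 lay above the typical gene and 2 below, against 21.2% and 10.1% of all tested genes. Their median was 0.17. Msgn1, a presomitic mesoderm gene, held 7.16 CPM at P17 and 2.08 CPM at P12 (191 and 28 reads), a log2 ratio of 1.76 (1.21 to 2.41), and was the 1 gene in these lists over 2-fold higher. Mesp1, the early cardiac mesoderm gene, held 9.94 CPM at P17 and 14.1 CPM at P12 (265 and 190 reads), a log2 ratio of -0.50 (-0.78 to -0.23). Both are known to lie downstream of T-box factors in the mouse embryo, and their ratios had opposite signs.

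**Figure D4:**
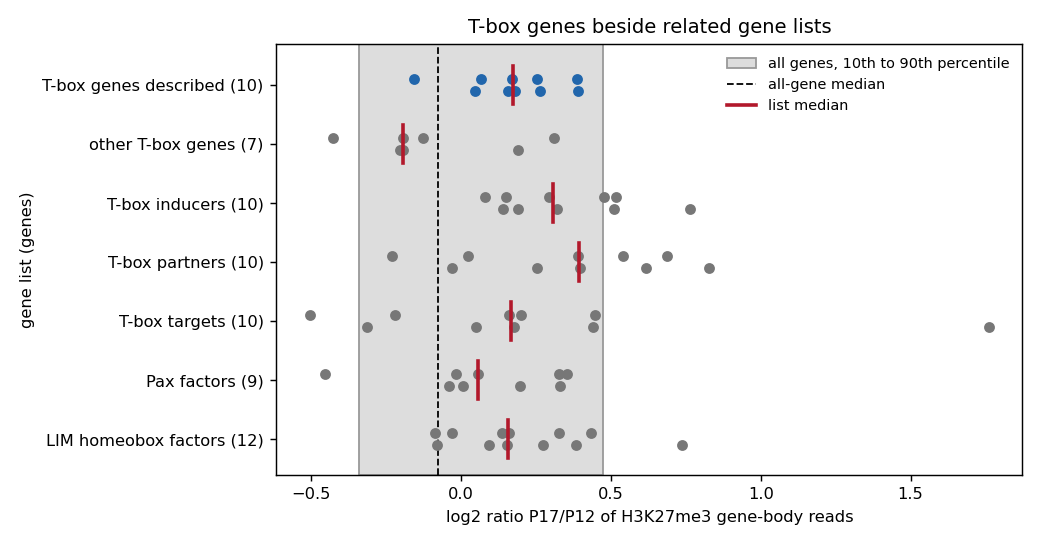
Log2 ratio P17/P12 of H3K27me3 gene-body reads (x axis) for each gene of 7 lists (rows; 10 T-box genes in blue, other lists in grey), with the list median in red, the all-gene median of -0.08 as a dashed line and the 10th to 90th percentile of all tested genes as a band. The median of the 10 T-box genes, 0.17, lies near those of the targets and the LIM homeobox factors, 0.17 and 0.16; Msgn1 at 1.76 is the point farthest to the right.

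The members were set beside 2 other families of developmental factors. The median log2 ratio of the 10 T-box genes was 0.17, that of 9 Pax factors 0.05 and that of 12 LIM homeobox factors 0.16, and these differences were not tested. Intervals above the typical gene numbered 6 of 9 for Pax and 9 of 12 for LIM homeobox factors, with 1 and 0 below. The shares over all tested genes were 21.2% above and 10.1% below. Both families held many reads, with medians at P17 of 235 CPM (Pax) and 160 CPM (LIM homeobox) against 15.1 CPM over all tested genes. Isl1 stands in both the partner and the LIM homeobox list. Pax genes ran from Pax4 at -0.45 to Pax1 at 0.35, and LIM homeobox genes from Lmx1a at -0.09 to Isl2 at 0.74.

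The cell type label was checked only as far as a repressive mark allows. Of 16 spermatocyte genes, 1 lay above the typical gene and 6 below, with 397 CPM in all at P17 and 460 CPM at P12. Of 15 measured genes of Sertoli, Leydig and other testis cells, 5 lay above and 1 below, with 565 CPM at P17 and 467 CPM at P12, and none was at 0. Over all tested genes the shares were 21.2% above and 10.1% below. The sum rose mainly at Wt1 (135 CPM at P17 and 79.4 CPM at P12), Sox9 (59.1 and 31.0) and Vim (39.9 and 16.9). Of the 15 genes, 8 had a log2 ratio above 0. Reads of H3K27me3 over a marker do not count its cells, and the part of other cell types in the T-box ratios was not tested.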

How the data were processed

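H3K27me3 reads per gene were taken from the 2 deposited gene-body files, P17 (2 replicates pooled per the labels) and P12. They hold the authors' raw read counts (multiBamCov, per the file names) from reads aligned to mm9, per the submitters' processing notes, which name Bowtie, SAMtools and HTSeq without roles; input subtraction is not recorded, with tool versions not given in the sources used here. Counts were scaled to the file total (CPM); the 146 symbols with several entries stayed in totals (10.1% of reads at P17, 10.6% at P12) but out of per-gene work. Log2 ratios used a library-scaled pseudocount of 1 read and at least 20 reads over both files. Ratio intervals (95%) were exact conditional (Clopper-Pearson), CPM intervals exact Poisson, and differences between 2 genes' ratios exact conditional odds ratio intervals (SciPy 1.17.1); PCR duplicates are not independent, so all cover counting error only. Calculations were tested on simulated counts with Poisson error only, the error the intervals assume. Duplicates and variation between libraries were not simulated. The alternatives included TMM factors (edgeR 4.0.16).

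Of 23220 single-entry symbols, 21412 matched the GRCm38 gene table and 1630 a synonym in it; it was used for names and gene order. Gene lengths were not used, so levels were not compared between genes. Peak files are in mm9 and were not placed on genes here; protein sequences were not used here. Members and lists were chosen with earlier results of these data known. Named were all T-box genes, the nearest measured neighbour on each side, the highest and lowest ratio of each related list and the 3 genes nearest in level; further names, subfamilies and pairs of relatives were chosen after values were seen.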

Additional observations from a re-analysis of the deposited data

How the results depend on the processing

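Alternatives were TMM factors, median-of-ratios size factors, a total without multi-entry symbols and the 20 entries with most reads at P12, pseudocounts of 0.5 and 5 reads, minimum reads of 1 or 100, and a typical gene of like level. TMM and median-of-ratios factors moved the all-gene median by 0.07 and 0.08 on the log2 scale and the T-box genes with it. The median log2 ratio of the 10 T-box genes ranged from 0.17 to 0.25 and that of T from -0.16 to -0.08. The count of T-box genes above the typical gene was 9 under all 8 alternatives run on it. The order of the 10 was the same under the 5 run on it, and partners above the typical gene numbered 7 or 8. Rescaling moves all ratios, intervals and the typical gene almost alike, the intervals use no pseudocount, and the read minimums removed no member. Only the typical gene of like level gave the T-box count much room to change, and there the interval of Tbx20 began only just above it. Rescaling could hardly change the order. No other count in the related lists moved. No alternative could test replicates, since each stage has 1 file. No paired analysis was possible because the P17 replicates are pooled and P12 has 1 replicate. Depth limits the genes with few reads: Tbx6, Mesp2, Ripply1, Nppa and Cypt4 had 76, 65, 42, 30 and 16 reads at P17, and their ratio intervals include the typical gene.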
